A study of Homo sapiens with 4 samples.

Results

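The 10 genes described here are IER2, IER3, IER5 and IER5L of the immediate early response (IER) group, BTG1 and BTG2, ZFP36, ZFP36L1 and ZFP36L2, and MCL1. They were taken by symbol from the 19901 protein-coding genes of the count table. The rule used no measured value, but the genes were chosen with earlier results of these data known. All 10 were among the 12612 that reached 50 counts in each of the 4 libraries and were tested. The data are TT-Seq libraries, which hold RNA made during a 10 min pulse of 500 μM 4-thiouridine (4sU), through which newly made transcripts can be purified. The cells were KAP1_dTAG clone D5 of HCT116, a human colon carcinoma line, in which endogenous KAP1, the transcriptional regulator encoded by TRIM28, carries a degradation tag that a dTAG compound connects to a Cereblon ubiquitin ligase. Cells of both groups carried the tag and grew in homeostatic conditions. One group received DMSO for 8 h and the other dTAG for 8 h, with 2 biological replicates each. The line is a single clone, dishes of a condition were pooled, and untagged cells given dTAG were not analysed here, so an effect of the compound itself and of KAP1 depletion cannot be told apart in these libraries.

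Immediate early genes (IEGs) are transcribed within minutes of a stimulus without new protein synthesis, and many are short and encode unstable mRNAs. Several genes of the set act after this first wave to limit it: BTG proteins recruit the CCR4-NOT deadenylase to mRNAs and restrain proliferation, and ZFP36 proteins bind AU-rich elements in 3′ UTRs and direct those mRNAs to decay. MCL1 is a short-lived anti-apoptotic member of the BCL2 family. The IER symbol stands for immediate early response, and IER5L is a relative of IER5. TT-Seq counts report new synthesis, on which mRNA decay bears little within so short a pulse.

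Gene counts per library were between 93105627 and 102314741. The HCT116 label was checked with the epithelial genes EPCAM, CDH1, KRT8, KRT18 and KRT19, all 5 of which were measured, at 1.65 to 58.8 CPM/kb in DMSO (CPM are counts scaled to TMM-corrected library size, here also divided by gene length in kilobases). Of 4 markers of other lineages only VIM passed the count minimum, with 97 to 130 counts. PTPRC and COL1A2 had at most 1 count in any library, and PECAM1 had 24 to 39. TRIM28 itself stood at 61.7 and 69.8 CPM in DMSO and 53.5 and 47.9 CPM with dTAG, which does not check the labels because dTAG acts on the protein. TRIM28 passed edgeR's quasi-likelihood test as lower (log2 fold change −0.37, SE 0.092, adjusted p = 0.019). In bulk libraries, less new RNA in every cell and fewer cells making it cannot be told apart.

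After KAP1 depletion, 4 of the 10 genes were downregulated and 0 were upregulated, at an adjusted p under 0.05 in edgeR's quasi-likelihood test. The 4 were IER5L and BTG2, which fell by 38.9% and 38.7%, ZFP36L1, which fell by 24.0%, and ZFP36L2, which fell by 19.4%. Over all tested genes 3.66% were called lower and 3.44% higher. DESeq2 called 4 lower and 0 higher as well, where it called 582 of the 12612 tested genes lower and 691 higher. At an unadjusted p under 0.05 in edgeR's test, 5 genes were lower and 1, MCL1, was higher. At that threshold 14.3% of all tested genes were lower and 12.3% higher. The median log2 fold change of the 10 was −0.12, beside −0.015 over all tested genes, for which 5% lay below −0.45 and 5% above 0.30. Both dTAG libraries lay on one side of both DMSO libraries in 6 of the 10 genes, below in 5 and above in 1, and such separation was seen in 58.8% of all tested genes. A count of 6 in 10 is therefore near the background. No gene of the set changed by 2-fold.

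**Figure D1:**
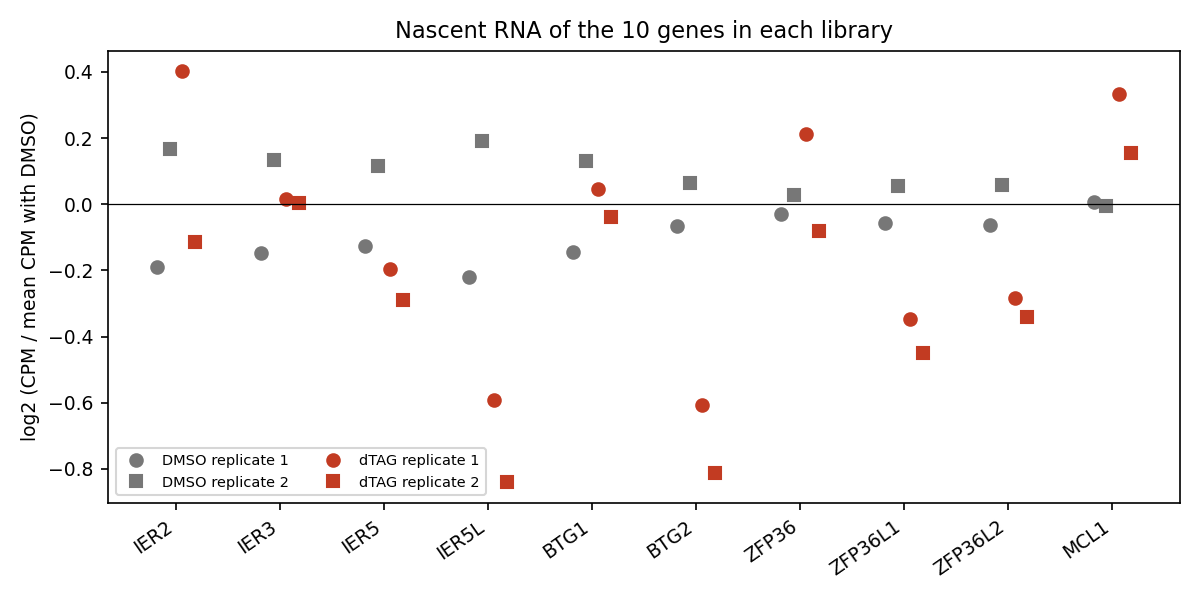
New RNA of the 10 genes in each of the 4 libraries, as the log2 of CPM over the mean CPM with DMSO, where each point is 1 library, grey for DMSO and red for dTAG, and circles and squares are replicates 1 and 2. The dTAG points of IER5L, BTG2, ZFP36L1, ZFP36L2 and IER5 lie below both DMSO points, those of MCL1 lie above, and the groups overlap for IER2, IER3, BTG1 and ZFP36.

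The genes were compared in level per length, since counts rise with gene length. In DMSO, IER3 stood at 243 ± 33.1 CPM/kb (SD, n = 2) and ZFP36L1 at 218 ± 12.1 CPM/kb, and their replicates overlapped. Both were at the 99.8th percentile of tested genes, whose median was 1.06 CPM/kb. IER5L followed at 35.4 ± 7.04 CPM/kb, then MCL1 at 26.4 ± 0.151 CPM/kb and ZFP36L2 at 15.0 ± 0.896 CPM/kb. IER2 at 10.8 ± 1.89, IER5 at 10.0 ± 1.18 and ZFP36 at 9.84 ± 0.269 CPM/kb could not be ordered, because their replicates overlapped. BTG2 had 7.11 ± 0.449 CPM/kb and BTG1 4.56 ± 0.613 CPM/kb. BTG1, at the 89.5th percentile, was the only gene of the set below the 90th. These ranks rest on the division by gene length, and the genes are short. By CPM alone the set ran from the 41.4th percentile (ZFP36) to the 99.9th (ZFP36L1). With dTAG the BTG order closed: BTG2 had 4.66 and 4.05 CPM/kb and BTG1 had 4.71 and 4.44 CPM/kb.

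**Figure D2:**
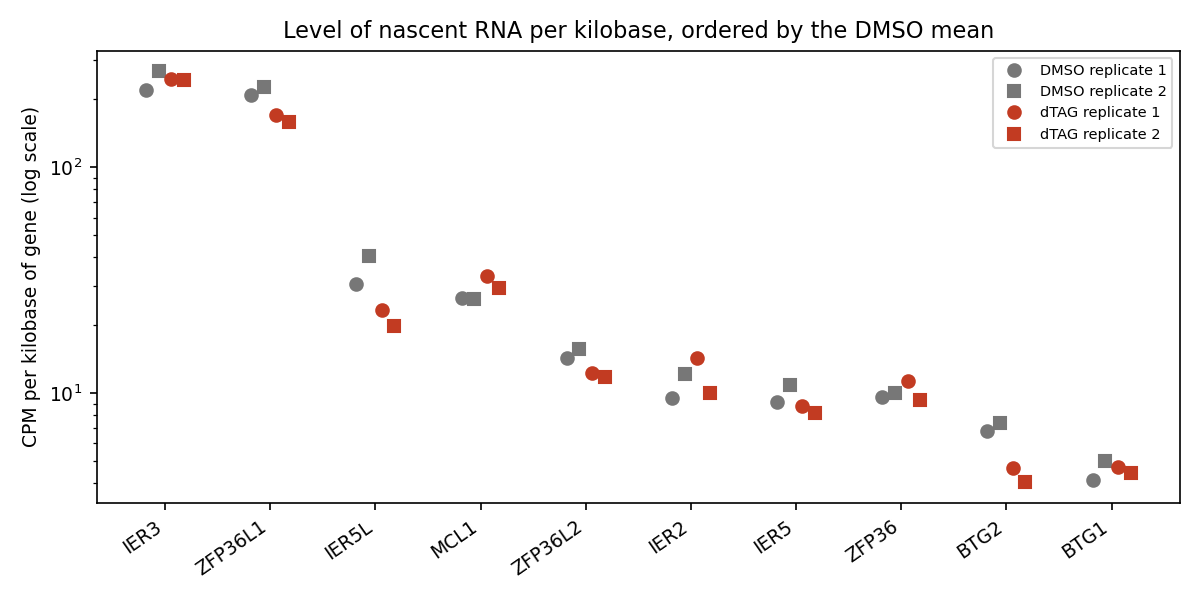
Level of new RNA per kilobase of gene (CPM/kb, log axis), with genes ordered by their DMSO mean; each point is 1 library, grey for DMSO and red for dTAG. IER3 and ZFP36L1 stand above 100 CPM/kb in every library, and the BTG2 and BTG1 points overlap with dTAG but not with DMSO.

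Of the IER genes, 1 of 4 was called. IER5L (ENSG00000188483, chr9:129175552-129178262, minus strand, hg38), a single-exon gene related to IER5, had 82.5 and 109 CPM in DMSO and 63.6 and 53.6 CPM with dTAG. The DMSO replicates were themselves apart, by 0.408 on the log2 scale (replicate 2 against 1). This lies just above the 0.405 that bounds the highest 5% of all tested genes. The lower DMSO replicate still exceeded both dTAG libraries. The log2 fold change was −0.71 (SE 0.11, adjusted p = 5.37e-04). IER5 (ENSG00000162783, chr1:181088712-181092899, plus strand), a single-exon gene whose protein acts with the heat shock factor HSF1, had 38.5 and 45.5 CPM in DMSO and 36.6 and 34.3 CPM with dTAG. Its groups did not overlap, but the log2 fold change of −0.24 (SE 0.10) did not pass the test (adjusted p = 0.13).

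IER2 (ENSG00000160888, chr19:13150415-13154908, plus strand), an IEG of the serum and growth factor response, had 42.6 and 54.7 CPM in DMSO and 64.3 and 45.0 CPM with dTAG. Its libraries were interleaved, with dTAG replicate 1 highest, and the log2 fold change was 0.17 (SE 0.13, adjusted p = 0.42). The dTAG replicates of IER2 differed by −0.52 on the log2 scale (replicate 2 against 1), below the −0.27 that bounds the lowest 5% of all tested genes. IER3 (ENSG00000137331, chr6:30743199-30744554, minus strand), whose protein modulates survival signaling, had 298 and 362 CPM in DMSO and 334 and 330 CPM with dTAG. Both dTAG values fell between the DMSO values, and the log2 fold change was 0.010 (SE 0.10, adjusted p = 0.95).

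The BTG genes parted. BTG2 (ENSG00000159388, chr1:203305491-203309602, plus strand), a p53-inducible and growth factor-inducible gene, had 27.9 and 30.5 CPM in DMSO and 19.2 and 16.6 CPM with dTAG. Replicates were close in both groups and the groups were well separated. The log2 fold change was −0.71 (SE 0.11, adjusted p = 5.83e-04). BTG1 (ENSG00000133639, chr12:92140278-92145897, minus strand), its closest relative in the set, had 23.2 and 28.1 CPM in DMSO and 26.5 and 25.0 CPM with dTAG, so that the dTAG libraries lay inside the DMSO range. Its log2 fold change was 0.0050 (SE 0.11, adjusted p = 0.98).

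Of the ZFP36 genes, the 2 relatives fell and ZFP36 was not called. ZFP36L1 (ENSG00000185650, chr14:68787660-68796253, minus strand), an mRNA decay factor, was the most counted gene of the set, with 1800 and 1947 CPM in DMSO and 1474 and 1373 CPM with dTAG. It held 0.180% and 0.205% of all gene counts in DMSO and 0.144% and 0.133% with dTAG. Both dTAG libraries were below both DMSO libraries, and the log2 fold change was −0.40 (SE 0.12, adjusted p = 0.046). ZFP36L2 (ENSG00000152518, chr2:43222402-43226609, minus strand), a decay factor of the same family, had 60.5 and 65.8 CPM in DMSO and 51.8 and 49.9 CPM with dTAG. Its groups did not overlap either, and the log2 fold change was −0.31 (SE 0.087, adjusted p = 0.036). ZFP36 (ENSG00000128016, chr19:39406813-39409412, plus strand), which encodes tristetraprolin and is itself an IEG, had 25.1 and 26.1 CPM in DMSO and 29.6 and 24.2 CPM with dTAG. The dTAG replicates lay on either side of the DMSO replicates, and the log2 fold change was 0.073 (SE 0.11, adjusted p = 0.70). The calls of ZFP36L1 and ZFP36L2 were the least firm of the 4. With a term for the replicate number in the quasi-likelihood fit, neither was called (adjusted p = 0.29 and 0.14), while IER5L and BTG2 were.

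MCL1 (ENSG00000143384, chr1:150574551-150579738, minus strand) had 137 and 136 CPM in DMSO and 172 and 152 CPM with dTAG. It was the only gene of the set with both dTAG libraries above both DMSO libraries. Its log2 fold change of 0.25 (SE 0.088) did not pass the test (adjusted p = 0.084).

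Ratios of family partners within a library do not depend on scaling between libraries, and 5 pairs were compared by a two-sided exact permutation test over the libraries. With 2 against 2 libraries the smallest p this test allows is 0.33, so that no pair could pass it. The log2 ratio of BTG2 to BTG1 was 0.27 and 0.12 in DMSO and −0.47 and −0.59 with dTAG, a difference of −0.72 (exact p = 0.33, adjusted over the 5 pairs 0.42). BTG2 thus had more counts than BTG1 in both DMSO libraries and fewer in both dTAG libraries. For ZFP36 to ZFP36L1 it was −6.16 and −6.22 in DMSO and −5.64 and −5.83 with dTAG, a difference of 0.46 with the same p. ZFP36L2 to ZFP36L1 was nearly level, at −4.90 and −4.89 against −4.83 and −4.78. IER5 to IER5L went from −1.10 and −1.27 to −0.80 and −0.64, a difference of 0.46. IER2 to IER3 overlapped between groups, at −2.80 and −2.73 against −2.38 and −2.88 (exact p = 1).

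The promoters of the genes were read from RefSeq (GRCh38.p14), whose table matched 7 of the 10; IER3, ZFP36L2 and MCL1 had no entry. The 150 bases before the start site are printed for the 3 downregulated genes with an entry and for BTG1, the BTG gene that was not called, 5′ to 3′ on the strand of the gene. Capitals mark CCAAT, the box that the trimeric factor NF-Y recognizes, or its reverse complement ATTGG. They cover chr1:203305369-203305518 (BTG2, plus), chr9:129178262-129178411 (IER5L, minus), chr14:68796244-68796393 (ZFP36L1, minus) and chr12:92145847-92145996 (BTG1, minus).
BTG2: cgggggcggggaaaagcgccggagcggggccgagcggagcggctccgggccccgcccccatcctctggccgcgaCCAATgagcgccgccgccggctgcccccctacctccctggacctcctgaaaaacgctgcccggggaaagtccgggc
IER5L: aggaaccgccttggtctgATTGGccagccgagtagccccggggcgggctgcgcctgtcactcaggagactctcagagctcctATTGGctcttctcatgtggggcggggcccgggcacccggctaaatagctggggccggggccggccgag
ZFP36L1: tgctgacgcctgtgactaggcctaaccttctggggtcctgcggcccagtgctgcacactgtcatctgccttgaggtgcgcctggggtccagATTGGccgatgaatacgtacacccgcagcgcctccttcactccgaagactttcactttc
BTG1: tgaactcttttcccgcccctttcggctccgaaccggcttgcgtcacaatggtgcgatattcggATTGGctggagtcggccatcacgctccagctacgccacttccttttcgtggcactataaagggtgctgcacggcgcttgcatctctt

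Within windows of 300 bases, from 250 before to 50 after the start and on both strands, CCAAT was found in 5 of the 7 promoters (IER5, IER5L, BTG1, BTG2 and ZFP36L1), beside 34.6% of all 35116 promoters in the table. Its first base lay 76 bases before the start in BTG2, 132 and 68 in IER5L, 59 in ZFP36L1, 87 in BTG1, and 113 and 49 in IER5. It was not in the windows of IER2 and ZFP36. The GC box core GGGCGG was in 5 of 7 (IER2, IER5L, BTG1, BTG2 and ZFP36), beside 45.0% of all promoters. BTG1 held TATAAA (11.5% of all promoters), and IER2 and IER5 held the ETS core CCGGAA (17.2%). The cyclic AMP response element TGACGTCA (1.85% of all promoters) and the CArG box of serum response factor (1.29%) were in 0 of the 7 windows. A CArG box can hold CCAAT or TATAAA by its letters, and the other motifs cannot contain one another. A match is a description of the sequence only. BTG1, which was not called, holds CCAAT as the 3 downregulated genes do, and a relation of motifs to fold change was not tested.

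Scaling moved the whole set. With the ERCC spike-in RNAs as the measure of library size, the median over all tested genes moved to a log2 fold change of 0.63, and 0 of 12612 genes and 0 of the 10 were called by edgeR, with 229 genes and 0 of the 10 at an unadjusted p under 0.05. On that scale BTG2 was at −0.058 and IER5L at −0.030, while ZFP36L1 was at 0.26 and ZFP36L2 at 0.35. Relative to the median of all genes, BTG2 was at −0.69, IER5L at −0.66, ZFP36L1 at −0.38 and ZFP36L2 at −0.29, close to their values with TMM. The directions given for ZFP36L1 and ZFP36L2 thus hold relative to the other genes and flip against the ERCC RNAs. The falls of BTG2 and IER5L also hold relative to the other genes only. Against the ERCC RNAs both were near 0, with an SE of 0.50 for BTG2 and 0.57 for IER5L. ERCC counts were 14798 and 25165 in DMSO and 13870 and 9551 with dTAG. When 1 factor from the ERCC RNAs entered the fit as a covariate, BTG2 (−0.55), IER5L (−0.32) and ZFP36L1 (−0.28) were called lower, and IER2 (0.60), IER3 (0.23) and MCL1 (0.30) were called higher. The split of all calls moved as well, from 434 higher and 461 lower to 801 and 530 with the ERCC factor and to 255 and 869 with upper-quartile factors.

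**Figure D3:**
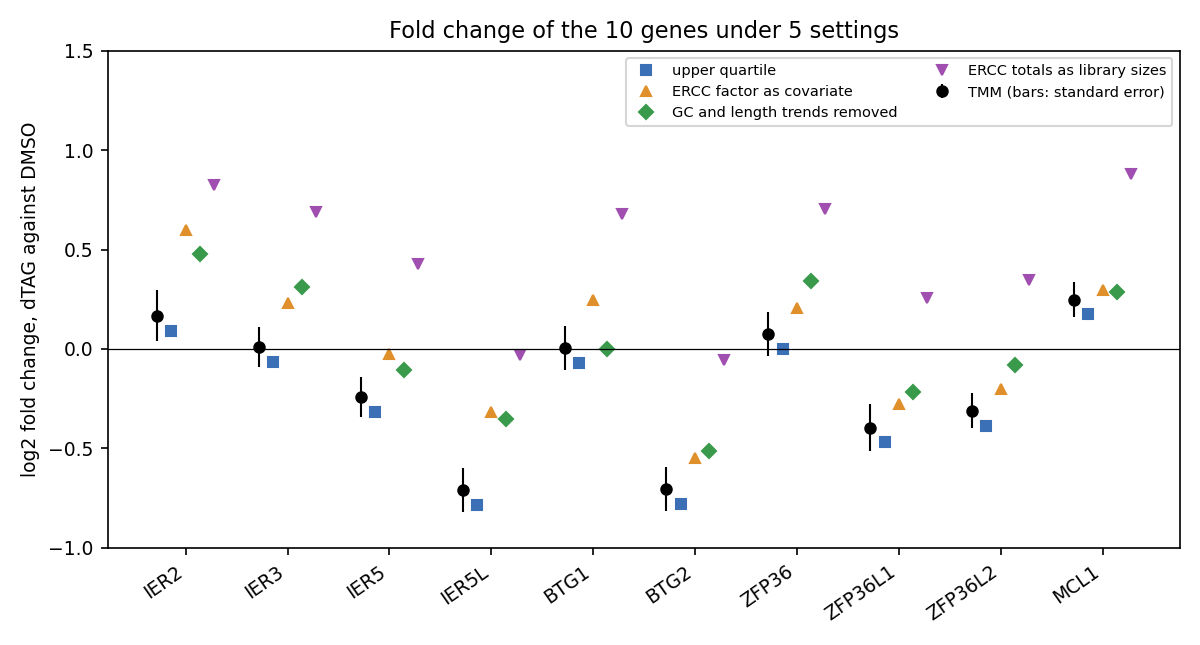
Log2 fold change (dTAG against DMSO) of each of the 10 genes under 5 settings of the fit, 1 symbol per setting, with the standard error as a bar on the TMM value. BTG2 and IER5L stay below 0 in each setting, but with ERCC totals they are near 0. The ERCC totals lift all 10 genes together.

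Sequence composition moved with the fold changes. Over the 12612 tested genes the log2 fold change fell with the GC content of the gene (Spearman's rho = −0.56) and rose with its length (rho = 0.42), both across genes of the same 4 libraries. The 10 genes were short, with 1356 to 8594 bp beside a median of 36149 bp, and their GC content ran from 42.5% in BTG1 to 65.0% in IER5L, beside a median of 44.9%. The 2 BTG genes differed in this as well, with 53.3% in BTG2. When the GC and length trends of each library were removed, IER5L was at −0.35, BTG2 at −0.52 and ZFP36L1 at −0.21, and all 3 were still called lower. ZFP36L2 moved to −0.083 and was not called. IER2 (0.48), IER3 (0.31), ZFP36 (0.34) and MCL1 (0.29), all with values above 0 before, were then called higher, and BTG1 stood at −0.0023. With this removal all calls numbered 1341 higher and 940 lower, and with the length trend alone removed 635 and 418. The part of composition in these results was not tested further.

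**Figure D4:**
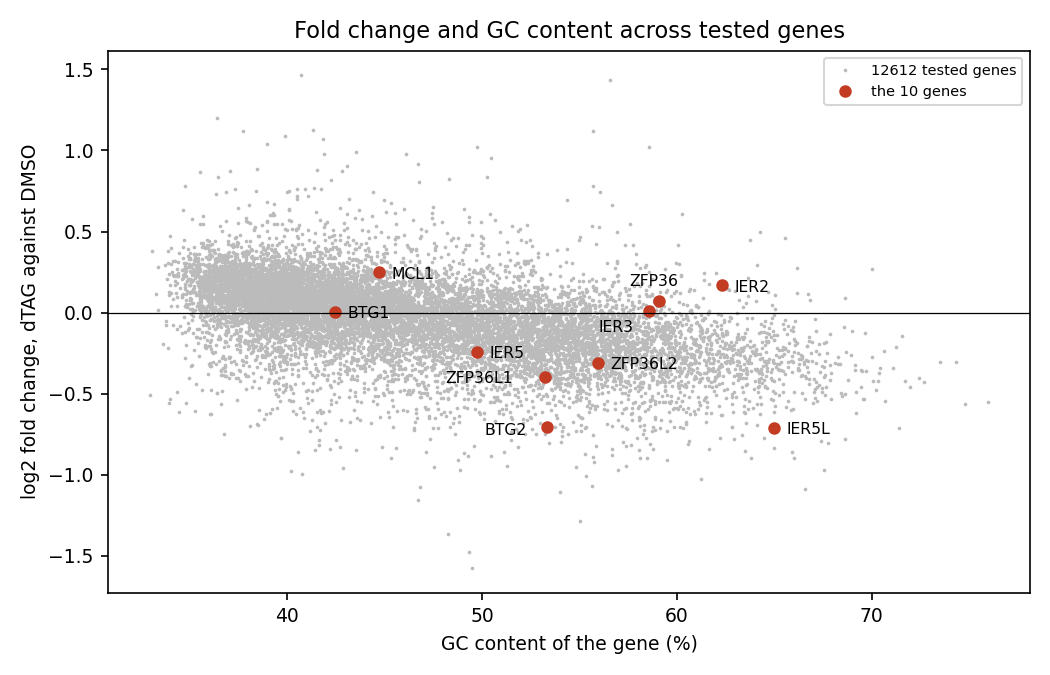
Log2 fold change against the GC content of the gene (%) for all tested genes in grey and the 10 genes in red with their names, where each point is 1 gene. The cloud slopes downward, BTG2 and ZFP36L1 share a GC content near 53.3%, and MCL1 and BTG1 sit close to the median GC content.

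Over all 16 alternatives together, IER5L and BTG2 kept a log2 fold change below 0 in 16, and MCL1 kept one above 0 in 16. With ERCC totals IER5L and BTG2 were close to 0, at −0.030 and −0.058. The alternatives called unlike shares of the 12612 tested genes, so the tallies of calls are not like for like. ERCC totals called 0. A replicate block with crossed numbers, chosen after seeing the data, called 1587 higher and 1603 lower. That block called IER5 lower and MCL1 higher. IER5L was called lower in 15, BTG2 in 14, ZFP36L1 in 11 and ZFP36L2 in 8. MCL1 was called higher in 7, IER2 in 5, IER3 in 4 and ZFP36 in 3. IER5 was called lower in 2, and BTG1 was called in 0. Without dTAG replicate 2 the call of BTG2 was lost (log2 fold change −0.61) and IER5L was the only gene of the set called lower. Without DMSO replicate 1 the log2 fold change was −0.36 for IER5 and 0.25 for MCL1.

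Reads could not always be given to a single gene. In GENCODE 44, 4 of the 10 (IER5, BTG2, ZFP36 and MCL1) overlap no annotated gene. None of the 10 overlaps another gene of the count table. IER5L overlaps its antisense gene IER5L-AS1 and the protein-coding gene ENSG00000235007, which is not in the table, both on the opposite strand, IER2, IER3 and ZFP36L2 overlap non-coding genes on the opposite strand, BTG1 overlaps LINC01619 and BTG1-DT, and ZFP36L1 overlaps a non-coding gene on its own strand. Since the treatment of strand is not given in the sources used here, reads of these partners cannot be told apart from those of the named genes. IER5 and IER5L have 1 exon, MCL1 has 3 and the other 7 have 2. Exons of the canonical transcript cover 35.1% of the ZFP36L1 gene, 47.0% of IER2, 66.4% of BTG2 and 67.2% of ZFP36, and counts over the whole gene do not tell intronic from exonic reads.

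Partners and relatives of the set were taken from textbook knowledge. Their counts stand beside the 3.66% of all tested genes called lower and the 3.44% called higher. Of the BTG and TOB relatives, 3 of 4 were tested and TOB1, an anti-proliferative protein of the same fold, was called lower. It had 63.4 and 64.7 CPM in DMSO and 50.9 and 51.6 CPM with dTAG (log2 fold change −0.32, SE 0.085, adjusted p = 0.026). TOB2 had −0.25 and BTG3 0.18, neither called, and BTG4 had at most 10 counts. The CCR4-NOT deadenylase that BTG and ZFP36 proteins recruit had 0 of 12 subunit genes called by edgeR or DESeq2, with 3 at an unadjusted p under 0.05, all higher, where 12.3% of all tested genes were higher. Its log2 fold changes ran from −0.15 in CNOT3 to 0.24 in CNOT6L, with a median of 0.13. Its genes stood at 0.746 to 3.63 CPM/kb in DMSO, below all 10 genes of the set. This order rests on the division by gene length. By mean CPM in DMSO they ran from 38.5 (CNOT8) to 394 (CNOT1), within the range of the set.

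Among proteins that bind AU-rich elements or similar mRNA sites, 9 of 10 genes were tested. Of these, 1 was called higher and 1 lower, beside 3.44% and 3.66% of all tested genes. AUH, which binds such elements and is also a mitochondrial enzyme, was called higher, with 126 and 106 CPM in DMSO and 142 and 148 CPM with dTAG (log2 fold change 0.32, SE 0.092, adjusted p = 0.039). PCBP1, a poly(C)-binding protein, was called lower, with 81.0 and 91.5 CPM in DMSO and 67.7 and 64.4 CPM with dTAG (log2 fold change −0.38, SE 0.087, adjusted p = 0.011). The median of the 9 was 0.071.

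Of the BCL2 family to which MCL1 belongs, 14 of 16 genes were tested. There 2 were called higher and 3 lower, beside 3.44% and 3.66% of all tested genes. BCL2L1, which encodes the anti-apoptotic BCL-XL, had 652 and 675 CPM in DMSO and 953 and 911 CPM with dTAG (log2 fold change 0.49, SE 0.10, adjusted p = 0.0071). PMAIP1, which encodes the pro-apoptotic NOXA, an MCL1 binder, had 72.8 and 61.6 CPM in DMSO and 92.9 and 93.8 CPM with dTAG (log2 fold change 0.47, SE 0.090, adjusted p = 0.0031). The genes called lower were all pro-apoptotic. BMF was at −0.65 (adjusted p = 0.033) on 325 to 617 counts, BBC3, which encodes PUMA, was at −0.52 (SE 0.11, adjusted p = 0.0090), and BAX, the fifth called, was at −0.34. The median of the 14 was −0.096. Calls thus went in both directions among pro-apoptotic members.

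**Figure D5:**
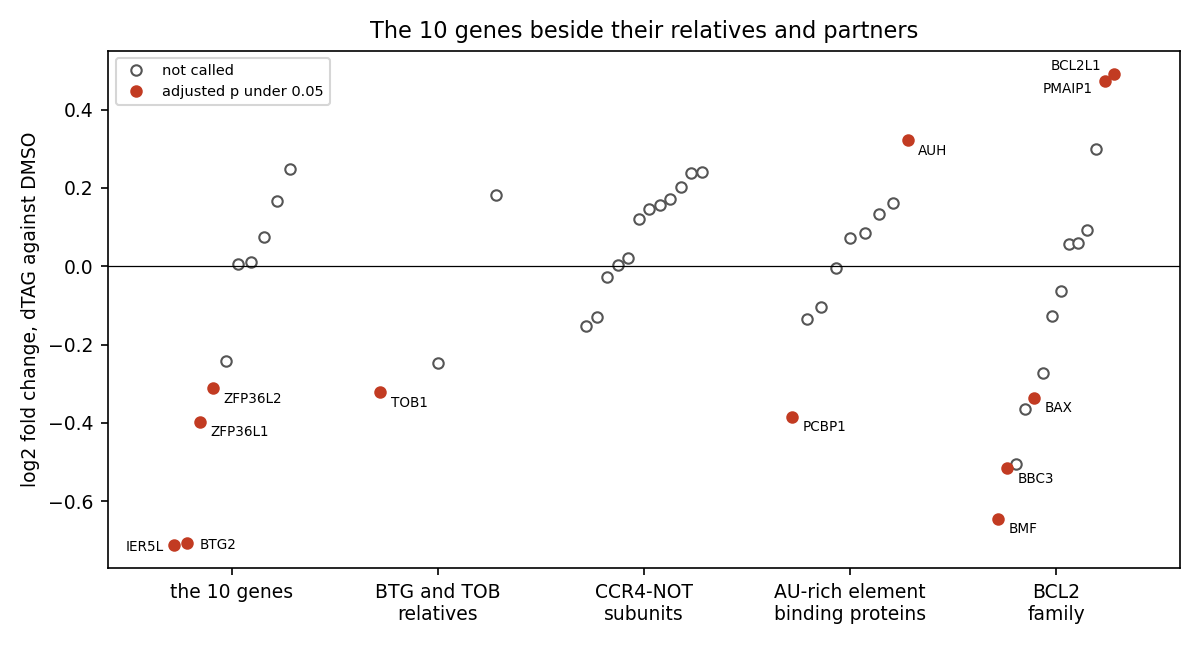
Log2 fold change (dTAG against DMSO) of the 10 genes beside the BTG and TOB relatives, the CCR4-NOT subunits, the AU-rich element binding proteins and the BCL2 family, where each point is 1 gene and filled points passed the test. The CCR4-NOT points lie between −0.15 and 0.24, while the BCL2 family spreads from −0.65 to 0.49.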

How the data were processed

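TT-Seq was carried out in 4 libraries of HCT116 KAP1_dTAG clone D5 cells, 2 with DMSO and 2 with dTAG. The authors aligned trimmed reads (Trim Galore 0.6.4; STAR) to hg38 and counted them over entire protein-coding genes and 92 ERCC RNAs with featureCounts (Subread 1.6.3), and the deposited values are raw counts without normalization. The treatment of strand and of overlapping genes is not given in the sources used here. Gene starts in the table count from 0 and are printed counting from 1. Symbols and structure came from GENCODE 44.

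Counts were analyzed with edgeR 4.0.16 in R 4.3.3. The filter required at least 50 counts in each of the 4 libraries (12612 genes), TMM factors were applied, and P-values came from the two-sided quasi-likelihood F test with Benjamini-Hochberg adjustment over all tested genes. A gene was called at an adjusted p under 0.05. The SE is the size of the log2 fold change over the square root of F. P-values measure only the spread between these libraries, and the precision rests on 2 replicates per group at 93105627 to 102314741 gene counts each. The paper names RUVSeq but neither its function nor the number of factors, so spike-in fits were alternatives. The ERCC factor was computed as RUVg does from the 14 ERCC RNAs that passed the filter. Other alternatives were DESeq2 1.42.0, upper-quartile factors, the likelihood ratio test, other filters, a replicate block, lowess removal (span 0.3) of GC and length trends, and each library left out. The scripts were tested on simulated data with known changes. Levels per length are CPM divided by the whole gene length in kb.

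The 10 genes and the related lists were chosen with earlier results of these data known. In the lists the text names every called gene, or the 4 with the largest change where more than 4 were called (BAX, the fifth of its list, was added after its value was seen), or the highest and lowest where 0 were called. Replicate numbers were checked for pairing through the deviations of same-numbered libraries from their group means.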

Additional observations from a re-analysis of the deposited data

How the results depend on the processing

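Of 160 values of the 10 log2 fold changes under the alternatives, 113 kept their direction and side of the threshold, 21 newly passed the test, 14 no longer passed it and 12 changed direction. With upper-quartile factors IER3 was at −0.065, BTG1 at −0.070 and ZFP36 at −4.7e-04. With ERCC totals IER5 was at 0.43, ZFP36L1 at 0.26 and ZFP36L2 at 0.35. With GC and length trends removed BTG1 was at −0.0023. With each library left out in turn, IER2 ran from −0.11 to 0.40, IER3 from −0.12 to 0.16, BTG1 from −0.13 to 0.15 and ZFP36 from −0.077 to 0.21, the negative values being those without DMSO replicate 1 (IER3, and BTG1 at −0.13) or dTAG replicate 1 (IER2, ZFP36, and BTG1 at −0.034). These values other than those against ERCC totals belong to genes that were not called with TMM.

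Whether replicate numbers pair the libraries could not be settled, since only a number is shared. The deviations of same-numbered libraries correlated at −0.25 over genes, and those with crossed numbers at 0.25. With 2 libraries per group these values can differ only in sign. With the replicate block, 2 of the 10 were called lower (BTG2 and IER5L), and of all genes 162 were higher and 178 lower, with 0 called among BTG and TOB relatives, 1 among AU-rich element binding proteins and 2 in the BCL2 family. With the numbers crossed, an alternative chosen after seeing the data, the replicate block called 1 of the 10 higher, 1587 genes higher and 1603 lower, 3 BTG and TOB relatives, 3 CCR4-NOT genes and 8 BCL2 family genes. The replicate block with GC and length trends removed called 4 of the 10 higher, 1510 genes higher and 1133 lower, and 1 CCR4-NOT gene.

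Members called higher numbered 0 with TMM, 3 with the ERCC factor, and 4 with the length trend or with both trends removed, and 0 were called lower with ERCC totals. Against 434 genes higher and 461 lower with TMM, DESeq2 called 691 higher, upper-quartile factors 255 higher and 869 lower, ERCC totals 0 and 0, the ERCC factor 801 higher, the likelihood ratio test 729 and 864, no filter 673 and 744, and the removal of both trends 1341 and 940. BTG and TOB relatives called numbered 1 with TMM, 2 with upper-quartile factors, and 0 with ERCC totals or the length trend removed. CCR4-NOT genes called numbered 0 with TMM and 1 with both trends removed. AU-rich element binding proteins called numbered 2 with TMM, 1 with upper-quartile factors or the length trend removed, and 0 with ERCC totals. BCL2 family genes called numbered 5 with TMM, 0 with ERCC totals and 3 with the ERCC factor. With each library left out in turn, a lone library was assumed to vary like the other group. The ranges were 0 to 2 of the 10 higher and 1 to 5 lower, 48 to 2798 genes higher and 21 to 2693 lower, 0 to 3 BTG and TOB relatives, 0 to 7 CCR4-NOT genes, 0 to 5 AU-rich element binding proteins and 0 to 11 BCL2 family genes. The highest counts of all genes came without DMSO replicate 1 and the lowest without dTAG replicate 2. The causes of these moves were not tested.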

Other observations

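The pentamer AUUUA, the core of the AU-rich element that ZFP36 proteins bind, was counted in the 3′ UTR of the GENCODE 44 canonical transcript of each gene. IER3 held 6 (8.14 per kb), ZFP36 held 5 (7.06 per kb) and ZFP36L1 held 8 (4.28 per kb), at the 98.1st, 96.9th and 87.0th percentiles of tested genes with a 3′ UTR. MCL1 and IER5 held 10 each. IER5L held 3, BTG2 held 2 (0.924 per kb, the 36.9th percentile) and IER2 held 0. The median over tested genes was 1.65 per kb, and 7 of the 10 genes were above it. The most strongly lowered genes, IER5L and BTG2, were thus not those richest in the pentamer, and no relation was tested.

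Within 100 kb of the 10 genes lay 35 tested neighbors, around 8 of them; BTG1 and BTG2 had 0. By edgeR 0 neighbors were called higher and 1 lower, FLOT1 near IER3 (log2 fold change −0.35, adjusted p = 0.025). DESeq2 also called 0 higher and 1 lower, and at an unadjusted p under 0.05 0 were higher and 9 lower, where 12.3% of all tested genes were higher and 14.3% lower. The share of 1 called in 35 is near the 3.66% of all tested genes called lower.

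By the study's own list of serum-induced genes, IER2, IER3, BTG2, ZFP36 and MCL1 are listed and the other 5 are not. That list came from RNA-Seq of serum-starved cells given serum, another assay and state than these TT-Seq libraries of homeostatic cells. A gene not listed is so for that experiment only. Of the 5 listed, 1 was called lower, with a median log2 fold change of 0.073, and of the 5 not listed, 3 were called lower, with a median of −0.31. Over all tested genes 3.66% were called lower. The difference between the listed and the other genes was not tested.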
